A study of Mus musculus with 21 samples.

Results

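The cytochrome P450 genes examined here were the protein-coding mouse genes whose symbol has the form Cyp, a family number, a subfamily letter and a gene number. The gene table held 92 of them, out of 21631 protein-coding genes, after 1 gene that is not reported here was left out. A P450 gene was said to have a peak when the summit of an estrogen receptor alpha (ERα) peak lay inside the span of the gene or within 25 kb of it, and a peak in reach of several neighbouring P450 genes was counted once. The choice of genes used their symbols and no measured value. ChIP-seq, in which chromatin is pulled down with an antibody and sequenced, located ERα, the estradiol receptor, in Liver, vWAT, scWAT and BAT of CD-1 mice aged 10 weeks. The Liver, vWAT, scWAT and BAT of estradiol-treated mice gave 2, 4, 3 and 1 ERα libraries, and the vWAT of vehicle-treated mice gave 2. Each group came with 1 list of peaks for all its libraries, so there is no spread between animals, no test was possible, and every comparison here is a description.

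P450 enzymes are membrane-bound haem proteins that insert an oxygen atom into small molecules with electrons passed on by a partner enzyme. Some make or break down the body's own lipids, such as steroid hormones, bile acids, vitamin D, retinoic acid and fatty acids. Families 1 to 3 mostly oxidise drugs and other foreign compounds. In rodents many of these genes lie in tandem clusters of close copies, and several differ between male and female liver.

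The lists held 21411 peaks for Liver, 20715 for vWAT with estradiol, 17971 for scWAT, 5193 for BAT and 7400 for vWAT with vehicle on chromosomes 1 to 19 and X, and the read depth behind them is unknown here. In the Liver list 46.4% of peaks reached a −log10 q-value of 2, as did 89.9% of vWAT estradiol peaks, 88.0% of scWAT peaks, 33.5% of BAT peaks and 70.9% of vehicle peaks. As a check of the labels, 3 of 6 hepatocyte markers had a peak in the Liver list, against 1, 1, 0 and 0 in the vWAT estradiol, scWAT, BAT and vehicle lists. Of 6 adipocyte markers, 5 had a peak in the Liver list and 6, 5, 2 and 3 had one in those other lists. Of 4 brown fat markers, 3 had a peak in the Liver list and 3, 1, 1 and 1 in the others, and Ucp1, the uncoupling protein of brown fat, had none in the BAT list. Over all genes 67.5% had a peak in the Liver list, and 61.5%, 61%, 29.7% and 44.8% in the others in that order. The hepatocyte markers were below that share in Liver, and most adipocyte markers had a Liver peak. A peak is also not expression, so these markers could not check the labels.

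The promoters printed here are those that show where the lists part at the start of a P450 gene. The RefSeq promoter table, on the assembly of mm10, held 80 promoters of 72 of the 92 genes, each running from 250 bases before to 50 bases after an annotated start. A peak of the Liver list covered part of 6 of the 80 (7.50%), against 23.9% of the 21045 promoters of all protein-coding genes. The same share was 3.75% for the vWAT estradiol list against 20.4% of all promoters, 6.25% for scWAT against 20.2%, 1.25% for BAT against 8.08%, and 3.75% for vWAT with vehicle against 18.1%. The share of P450 promoters was below that of all promoters in all 5 lists. Cyp2e1 (the enzyme that oxidises ethanol, chr7:140763569-140763868, plus strand) and Cyp3a59 (chr5:146079008-146079307, plus strand) were covered in the Liver list alone, Cyp3a57 (chr5:145345019-145345318, plus strand) in the scWAT list alone, and Cyp4f13 (chr17:32947312-32947611, minus strand) in the vWAT estradiol, scWAT and vehicle lists but not in Liver. They read 5′ to 3′ on the strand of the gene, with capitals marking GGTCA or its reverse complement TGACC, the letters at the core of an estrogen response element half-site.
Cyp2e1: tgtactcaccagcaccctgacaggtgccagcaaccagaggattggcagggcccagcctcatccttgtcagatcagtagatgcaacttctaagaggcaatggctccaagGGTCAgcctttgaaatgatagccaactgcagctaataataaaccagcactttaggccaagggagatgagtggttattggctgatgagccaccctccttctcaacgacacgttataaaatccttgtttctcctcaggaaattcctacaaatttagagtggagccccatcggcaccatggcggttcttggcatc
Cyp3a59: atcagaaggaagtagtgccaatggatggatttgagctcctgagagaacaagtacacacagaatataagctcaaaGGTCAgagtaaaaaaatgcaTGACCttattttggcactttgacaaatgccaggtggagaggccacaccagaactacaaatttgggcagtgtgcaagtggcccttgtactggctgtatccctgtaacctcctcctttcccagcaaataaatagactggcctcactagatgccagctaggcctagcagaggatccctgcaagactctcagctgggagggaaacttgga
Cyp3a57: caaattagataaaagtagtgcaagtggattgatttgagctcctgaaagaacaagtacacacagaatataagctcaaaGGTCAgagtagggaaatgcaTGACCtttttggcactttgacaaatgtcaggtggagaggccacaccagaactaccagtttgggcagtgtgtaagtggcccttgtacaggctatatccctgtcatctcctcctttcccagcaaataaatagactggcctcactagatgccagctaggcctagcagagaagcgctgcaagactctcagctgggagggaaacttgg
Cyp4f13: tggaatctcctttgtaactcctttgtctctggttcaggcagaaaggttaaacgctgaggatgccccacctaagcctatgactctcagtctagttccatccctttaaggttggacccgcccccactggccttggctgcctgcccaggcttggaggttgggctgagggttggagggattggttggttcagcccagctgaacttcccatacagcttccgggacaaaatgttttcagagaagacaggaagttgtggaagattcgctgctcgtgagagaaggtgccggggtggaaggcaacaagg

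The promoters of Cyp3a59 and Cyp3a57 were 92.6% identical over 297 aligned bases, and both held GGTCA followed by TGACC. The Cyp3a59 promoter lay under a Liver peak (enrichment 4.83, −log10 p-value 6.32) with its summit 80 bases before the start, and the Cyp3a57 promoter lay under a scWAT peak (enrichment 4.06, −log10 p-value 11.2) with its summit 144 bases before the start. How reads that fit both copies were treated is unknown here, so which copy each peak belongs to is uncertain. The Cyp2e1 promoter held 1 such half-site, 142 bases before the start, and its Liver peak had an enrichment of 3.88 with the summit 216 bases before the start. The Cyp4f13 promoter held none, and its peaks had an enrichment of 6.35 in vWAT with estradiol, 3.04 in scWAT and 3.96 in vWAT with vehicle. The other 10 covered promoters, those of Cyp2d26, Cyp20a1, Cyp3a13, Cyp4v3, Cyp2j9, Cyp2r1, Cyp2s1, Cyp46a1, Cyp4f16 and Cyp2j6, held no GGTCA on either strand. Over all 80 P450 promoters, 44 (55.0%) held GGTCA on either strand, against 39.5% of all promoters. The full element GGTCANNNTGACC was in none of the 80 and in 11 (0.0523%) of all promoters. These matches describe letters in a window of 300 bases and not binding.

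The share of P450 genes with a peak was below that of all genes in the fat lists and, at a reach of 25 kb, close to it in Liver. In the Liver list 58 of the 92 P450 genes (63.0%) had a peak, against 67.5% of all protein-coding genes. In vWAT with estradiol 39 (42.4%) had one, against 61.5% of all genes, and in scWAT 28 (30.4%), against 61% of all genes. In BAT 13 (14.1%) had one, against 29.7%, and in vWAT with vehicle 18 (19.6%), against 44.8%. The closeness in Liver was lost under 3 alternatives. Within 5 kb the Liver share was 34.8% of P450 genes, against 50.8% of all genes. With −log10 q-values of at least 2 it was 37.0%, against 50.6%, and with 5193 peaks a list it was 20.7%, against 35.8%, beside 15.2% against 28.9% in vWAT with estradiol. Within 100 kb it was 89.1%, against 86.5%, and with each peak given to its nearest gene only it was 47.8%, against 47.3%. Median spans were 21.2 kb for P450 genes and 17.3 kb for all genes.

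**Figure D1:**
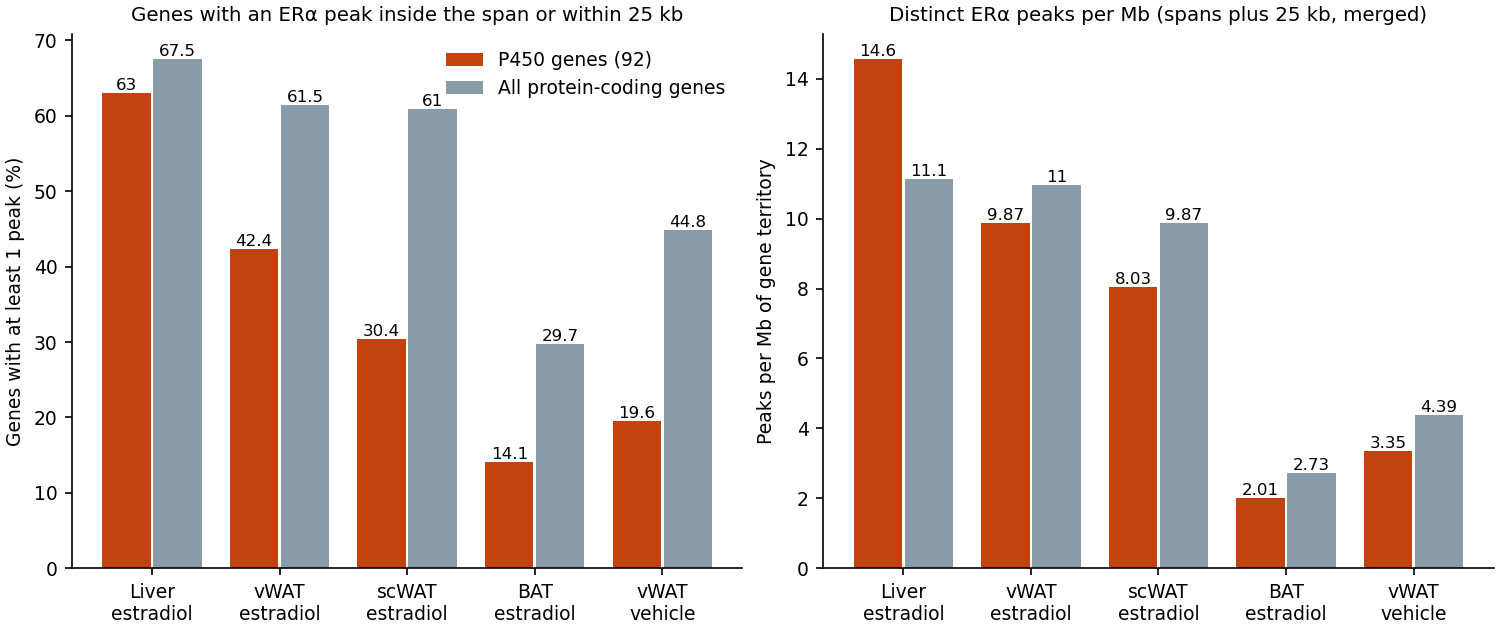
Left, percent of the 92 P450 genes (red) and of all protein-coding genes (grey) with at least 1 ERα peak inside the span or within 25 kb, by peak list. Right, distinct peaks per Mb of the same territory; Liver is the one list in which P450 territory held more peaks per Mb than the territory of all genes (14.6 against 11.1).

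Counted once each, 87 Liver peaks lay in P450 territory, against 59 in vWAT with estradiol, 48 in scWAT, 12 in BAT and 20 in vWAT with vehicle. P450 territory, the merged spans with 25 kb on either side, covers 5.97 Mb, and that of all genes covers 1478 Mb. The Liver list held 14.6 peaks per Mb there, against 11.1 over all genes. The vWAT estradiol list held 9.87 against 11, scWAT 8.03 against 9.87, BAT 2.01 against 2.73, and vWAT with vehicle 3.35 against 4.39. Held to its 5193 strongest peaks, the length of the BAT list, the Liver list no longer held more in P450 territory, with 3.01 peaks per Mb against 3.07 over all genes. At that length the fat lists stayed below all genes, with 2.34 against 2.77 for vWAT with estradiol and 2.34 against 2.75 for scWAT. With a reach of 100 kb the order in fat turned round, to 10.8 against 9.97 for vWAT with estradiol, 10.0 against 8.84 for scWAT and 2.83 against 2.42 for BAT.

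Liver and fat differed in which P450 genes had a peak. A Liver peak with no peak in any of the 3 estradiol-treated fat lists was found for 25 P450 genes (27.2%), against 8.55% of all genes. In any of those fat lists 45 P450 genes (48.9%) had a peak, against 71% of all genes. A peak in one of them with no Liver peak was found for 12 (13.0%), against 12% of all genes. Both were found for 33 (35.9%), against 59% of all genes, and 22 (23.9%) had no peak in any of the 5 lists, against 20% of all genes. In all 5 lists 5 P450 genes (5.43%) had a peak, against 21.1% of all genes. The count of Liver-only genes fell with stricter peaks, but their share stayed above that of all genes. At equal list length it was not above that of all genes. With peaks of −log10 q-value of at least 2 the Liver-only count was 15 (16.3%), against 4.85% of all genes, and with each list held to 5193 peaks it was 7 (7.61%), against 9.03% of all genes. At a reach of 5 kb it was 20 (21.7%), against 9.18%, and at 100 kb 26 (28.3%), against 6.57%. With each peak given to its nearest gene only it was 24 (26.1%), against 10.7%.

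**Figure D2:**
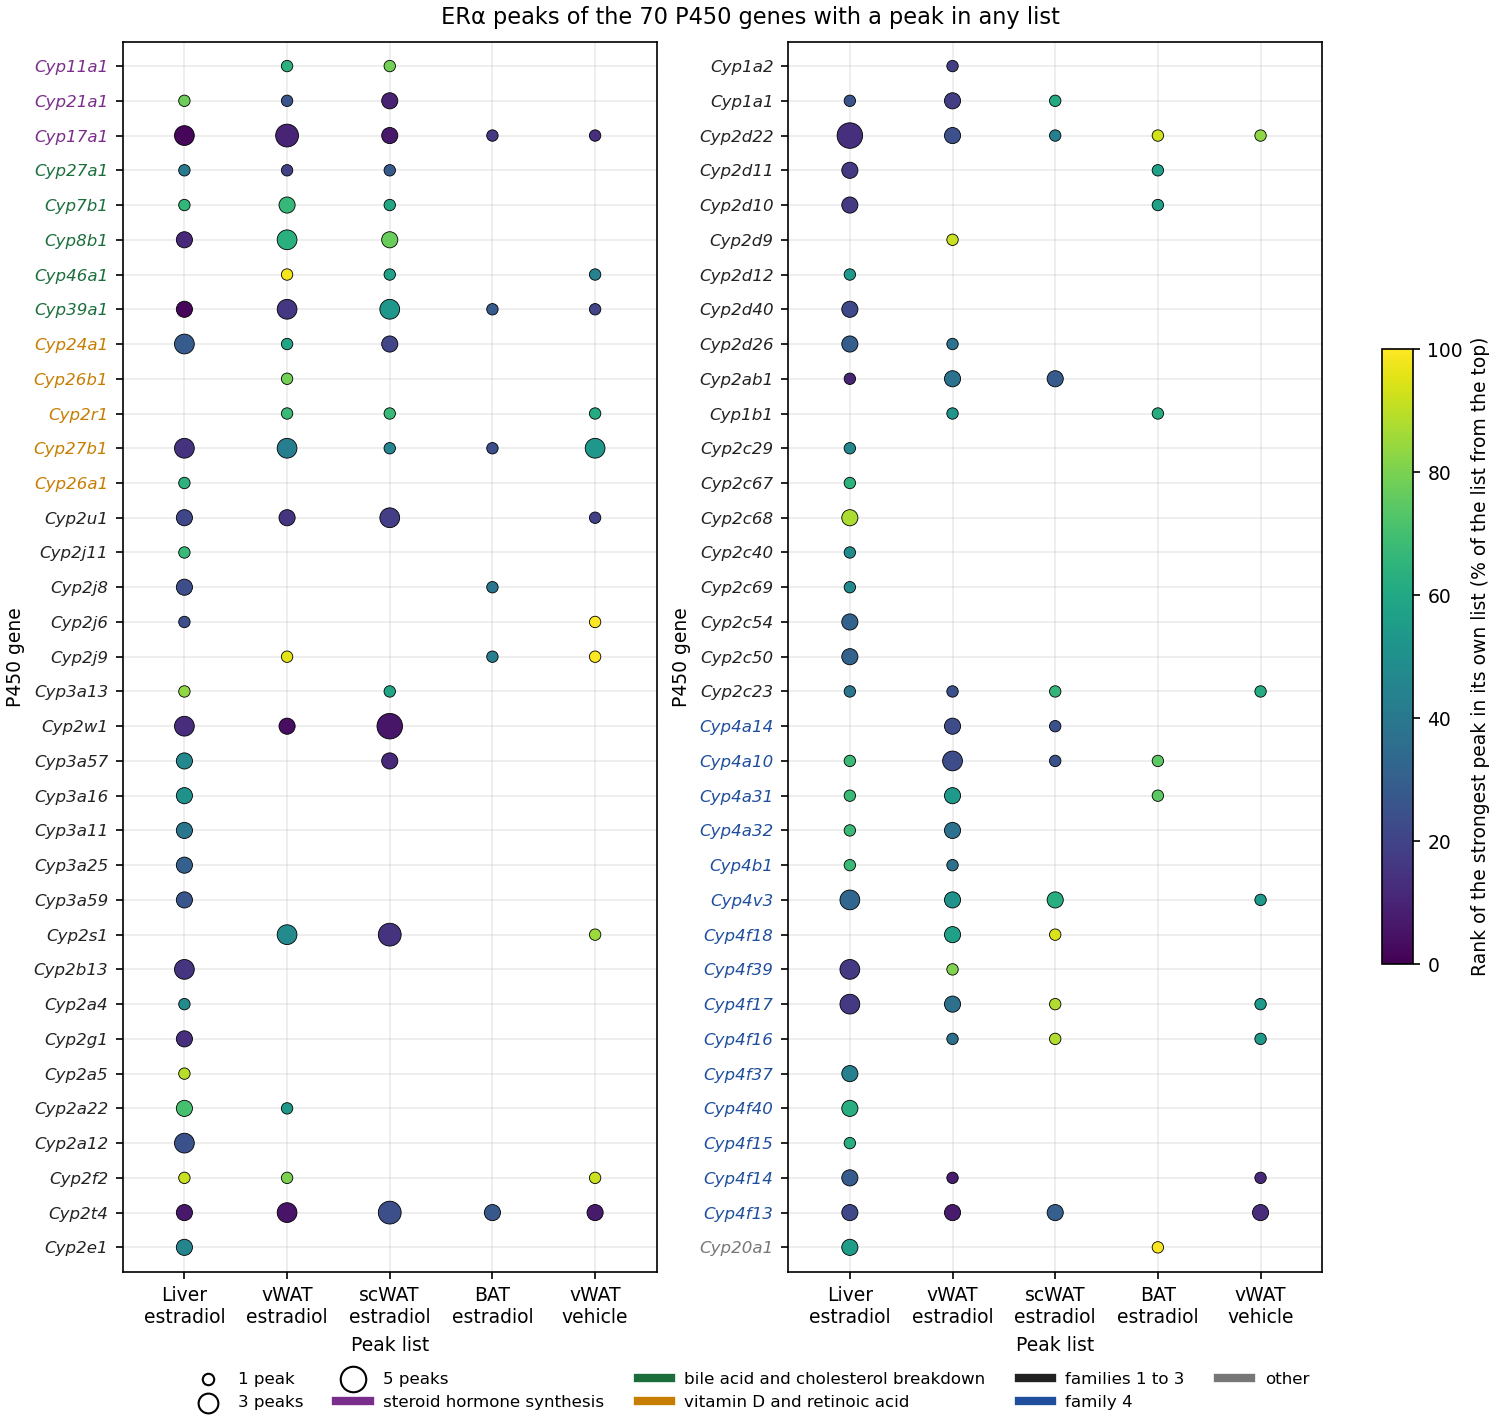
Each row is 1 of the 70 P450 genes with a peak in any list, coloured by role, and each column is a peak list; dot size gives the number of peaks in reach and dot colour the rank of the strongest one in its own list. Rows with a dot in the Liver column alone include most of the Cyp2c, Cyp3a and Cyp2a genes shown, and only Cyp17a1, Cyp39a1, Cyp27b1, Cyp2d22 and Cyp2t4 have a dot in all 5 columns.

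The genes of steroid hormone synthesis had 4 peaks in Liver, 6 in vWAT with estradiol, 5 in scWAT, 1 in BAT and 1 in vWAT with vehicle. Of 5 genes, 2 had a Liver peak, 3 a vWAT estradiol peak, 3 a scWAT peak, 1 a BAT peak and 1 a vehicle peak. These are 40%, 60%, 60%, 20% and 20% of the 5, beside 67.5%, 61.5%, 61%, 29.7% and 44.8% of all genes. The vWAT estradiol and scWAT shares were thus near those of all genes. Cyp17a1, the enzyme that turns progestogens toward androgens, had the strongest Liver peak of all P450 genes, at chr19:46689826-46690357, with an enrichment of 14.1 and a −log10 p-value of 32.1. That peak lay 17 kb from Cyp17a1 and 61 bp from an end of Borcs7, and it recurred in the other 4 lists with enrichments of 10.7 in vWAT with estradiol, 6.98 in scWAT, 5.63 in BAT and 9.88 in vWAT with vehicle. A second Liver peak lay inside Cyp17a1, at chr19:46668328-46668719 (enrichment 5.19), and was in no other list. A further peak 20.8 kb away was found in vWAT with estradiol (7.18) and scWAT (7.16) and in none of the Liver, BAT and vehicle lists. The sites around Cyp17a1 thus differed in how many lists held them, and the one at the Borcs7 end was in all 5.

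Cyp21a1, the steroid 21-hydroxylase, had its strongest peak in scWAT, at chr17:34778189-34778632 (enrichment 7.21), 22.9 kb away. Its vWAT estradiol peak there had an enrichment of 6.77, and its one Liver peak, elsewhere, 3.31. Cyp11a1, which cleaves the side chain of cholesterol as the first step of steroid synthesis, had a peak in vWAT with estradiol (4.38, inside the gene) and in scWAT (3.05, 7.58 kb away) and none in Liver. Cyp11b1 and Cyp11b2, the last enzymes toward corticosterone and aldosterone, had no peak in any list.

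Of the 6 genes of bile acid and cholesterol breakdown, 4 had a Liver peak, 5 a vWAT estradiol peak, 5 a scWAT peak, 1 a BAT peak and 2 a vehicle peak. The Liver share, 66.7%, was at the 67.5% of all genes, and 83.3% in vWAT with estradiol and in scWAT stood beside 61.5% and 61% of all genes, on counts of 6 genes. Cyp7a1, the rate-limiting enzyme of bile acid synthesis, had no peak in any list. Cyp8b1, which sets the share of cholic acid, had a Liver peak 10.5 kb away at chr9:121926598-121927060 (enrichment 6.10) that no other list held, while its 3 vWAT estradiol peaks had enrichments of 3.81 to 4.59. Its other Liver peak (4.06), 24.1 kb away, overlapped the vWAT estradiol peak of 3.81 and a scWAT peak (2.92). Cyp39a1, an oxysterol 7α-hydroxylase, had the second strongest Liver peak, at chr17:43666957-43667493 (12.2). It lay 157 bp from an end of Cyp39a1 and 1 bp from an end of Slc25a27, and the other lists held it with enrichments of 8.62 in vWAT with estradiol, 3.04 in scWAT, 4.83 in BAT and 8.05 in vWAT with vehicle.

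Cyp27a1, the mitochondrial sterol 27-hydroxylase, had its peaks at different places in fat and in Liver. In white fat a peak lay just outside the gene, at chr1:74712600-74713089 in vWAT with estradiol (7.71, 288 bp from the end) and overlapping it in scWAT (4.44). The Liver peak (4.29) lay inside the gene, 8.87 kb from its nearest end, and the vehicle list had no peak in reach of Cyp27a1. Cyp7b1, an oxysterol 7α-hydroxylase that is higher in male mouse liver, had peaks of 3.33 in Liver, 4.59 in vWAT with estradiol and 3.33 in scWAT, at different places. Cyp46a1, the 24-hydroxylase of brain cholesterol, had none in Liver but had one in scWAT (3.43) that overlapped one in vWAT with vehicle (5.09). Its vWAT estradiol peak (3.23) lay elsewhere, 24.2 kb away.

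Of the 6 genes of vitamin D and retinoic acid, 3 had a Liver peak, 4 a vWAT estradiol peak, 3 a scWAT peak, 1 a BAT peak and 2 a vehicle peak. These are 50%, 66.7%, 50%, 16.7% and 33.3% of the 6, beside 67.5%, 61.5%, 61%, 29.7% and 44.8% of all genes. Cyp27b1, which makes active vitamin D, had 3 peaks in Liver, 3 in vWAT with estradiol, 1 in scWAT, 1 in BAT and 3 in vWAT with vehicle. Its strongest Liver peak (5.77) lay 34 bp from an end of Eef1akmt3 and overlapped no peak of another list. The scWAT peak (3.77) lay right beside it, with summits 6.27 kb (Liver) and 6.51 kb (scWAT) from Cyp27b1. The BAT peak (5.10) lay at an end of Tsfm and was also in the Liver and vehicle lists. Cyp24a1, which inactivates vitamin D, had a scWAT peak 1.10 kb from the gene at chr2:170497986-170498476 (5.49) that no other list held. Its 3 Liver peaks (4.74 at most) lay 11.9 to 23.1 kb away, and the vWAT estradiol peak (4.84) overlapped the farthest of them.

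Cyp2r1, the vitamin D 25-hydroxylase, had no Liver peak, and its vWAT peaks overlapped between estradiol (4.59) and vehicle (4.45) at the gene's end. The retinoic acid hydroxylases were split: Cyp26a1 had a peak in Liver alone (3.33, 18.6 kb away), Cyp26b1 in vWAT with estradiol alone (4.12, inside the gene), and Cyp26c1 in no list.

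Families 1 to 3, which oxidise foreign compounds, held 21 of the 25 Liver-only genes. Of the 57 genes of families 1 to 3, 36 had a Liver peak, 15 a vWAT estradiol peak, 10 a scWAT peak, 7 a BAT peak and 8 a vehicle peak. These are 63.2%, 26.3%, 17.5%, 12.3% and 14.0% of the 57, beside 67.5%, 61.5%, 61%, 29.7% and 44.8% of all genes. A Liver peak with no estradiol-treated fat peak was found for 21 of the 57 (36.8%, against 8.55% of all genes), the converse for 5 (8.77%, against 12%), and no peak in any list for 16 (28.1%, against 20%). With −log10 q-values of at least 2 the Liver-only count was 14 (24.6%, against 4.85% of all genes), and with 5193 peaks a list it was 4 (7.02%), below the 9.03% of all genes. Their territory held 14.2 Liver peaks per Mb, 6.05 vWAT estradiol peaks per Mb and 6.31 scWAT peaks per Mb, beside 11.1, 11 and 9.87 over all genes in the same lists.

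Among the strongest sites of these families, Cyp2t4 had one in all 5 lists at an end of Rab4b, 20.2 kb away at chr7:27178522-27179177, with enrichments of 7.45 in Liver, 12.6 in vWAT with estradiol, 4.27 in scWAT, 4.93 in BAT and 12.9 in vWAT with vehicle. Cyp2w1 had its strongest in vWAT with estradiol (11.2) and scWAT (6.64) at the same place, 22.4 kb away and near Gpr146, where neither Liver nor vehicle had one. Another peak 5.0 kb from Cyp2w1 was found in Liver (5.71), vWAT with estradiol (4.36) and scWAT (3.09). Cyp2ab1 had a Liver peak 15.1 kb away (6.63) that no other list held, and a separate one 12 kb away in vWAT with estradiol (6.12) and scWAT (4.63).

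Cyp2d22 had peaks in all 5 lists, 5 of them in Liver. The strongest of these (5.63, 8.93 kb away) was in Liver alone, and the best in the other lists had enrichments of 5.75 in vWAT with estradiol, 3.32 in scWAT, 3.31 in BAT and 3.67 in vWAT with vehicle. Cyp2g1 (5.97, 7.84 kb away) and Cyp2b13 (5.64, inside the gene) had peaks among the 10 strongest of the 87 Liver peaks near P450 genes, and none in any fat list. Cyp2u1, a fatty acid hydroxylase, had a peak inside the gene 0.873 kb from an end in vWAT with estradiol (9.08), scWAT (2.94) and vWAT with vehicle (8.25), while its Liver peaks (5.21 and 4.58) lay elsewhere.

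Cyp2s1 and Cyp2j9 had peaks in fat and none in Liver, whereas Cyp1a1 and Cyp2c23 had peaks in both. Cyp2s1 had 3 peaks in vWAT with estradiol (4.44 at most), 4 in scWAT (5.94 at most, 486 bp from the gene) and 1 in vWAT with vehicle (3.71). Cyp2j9 had 1 peak each in vWAT with estradiol (3.57), BAT (4.55) and vWAT with vehicle (3.16, inside its neighbour Cyp2j6). Cyp1a1, a target of the aryl hydrocarbon receptor, had a vWAT estradiol peak inside the gene at chr9:57698475-57699035 (8.06) that no other list held, and a weaker one 19.6 kb away (6.26) that Liver (4.69) and scWAT (3.12) held too. Cyp2c23, which lies apart from the other Cyp2c genes, had a peak inside the gene in vWAT with estradiol (6.84), scWAT (3.26) and vWAT with vehicle (4.30), and a Liver peak elsewhere (4.36).

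Of the 17 genes of family 4, whose enzymes hydroxylate the far end of fatty acids, 12 had a Liver peak, 12 a vWAT estradiol peak, 7 a scWAT peak, 2 a BAT peak and 5 a vehicle peak. The 12 genes are 70.6% of the family, near the 67.5% of all genes in Liver and the 61.5% in vWAT with estradiol, and the shares of 41.2% in scWAT, 11.8% in BAT and 29.4% in the vehicle list were below the 61%, 29.7% and 44.8% of all genes. In both vWAT lists the strongest lay at ends of zinc finger genes next to the Cyp4f cluster. The one near Cyp4f13, at an end of Zfp472, had enrichments of 5.16 in Liver, 13 in vWAT with estradiol, 4.36 in scWAT and 10.3 in vWAT with vehicle. The one near Cyp4f14, which inactivates leukotriene B4, lay at an end of Zfp870 and had enrichments of 4.62 in Liver, 12 in vWAT with estradiol and 11.6 in vWAT with vehicle.

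Cyp4a14, a PPARα target in liver, had a peak 1.59 kb away at chr4:115497463-115498024 in vWAT with estradiol (7.82) that scWAT (4.98) held too, and none in Liver, BAT or vehicle. Cyp4f39, a hydroxylase of very long fatty acids in skin, had a Liver peak inside the gene (5.53) that no other list held, and Cyp4f17 one 546 bp from its end (5.05). The vWAT peaks of Cyp4f17 lay elsewhere in the gene and did not overlap each other (6.03 with estradiol, 4.76 with vehicle). Cyp4v3 had overlapping peaks at its end in Liver (4.34), vWAT with estradiol (4.15) and vWAT with vehicle (4.52). Cyp20a1, a P450 of unknown substrate, had 2 Liver peaks (3.33 at most) and 1 BAT peak (2.82).

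At the full length of the lists, Liver had a higher share of genes with a peak than vWAT with estradiol and scWAT inside the P450 gene clusters but not outside them. Runs of 3 or more P450 genes with gaps of at most 500 kb numbered 8 and held 66 of the 92 genes, a grouping chosen after the peaks were seen. In the clusters 41 genes (62.1%) had a Liver peak, 21 (31.8%) a vWAT estradiol peak, 11 (16.7%) a scWAT peak, 8 (12.1%) a BAT peak and 10 (15.2%) a vehicle peak. Among the 26 genes outside clusters those counts were 17 (65.4%), 18 (69.2%), 17 (65.4%), 5 (19.2%) and 8 (30.8%), beside 67.5%, 61.5%, 61%, 29.7% and 44.8% of all genes. The BAT and vehicle lists were below Liver both inside and outside the clusters. Of the 25 Liver-only genes 23 lay in clusters and 2 outside.

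By density, cluster territory held 13.3 Liver peaks per Mb, 6.27 vWAT estradiol peaks per Mb and 4.10 scWAT peaks per Mb, and the territory of the 26 other genes held 17.5, 18.0 and 16.9. Over all genes those lists held 11.1, 11 and 9.87 peaks per Mb. The 2 white fat lists were thus below all genes inside the clusters and above them outside. With −log10 q-values of at least 2 the clusters held 6.52, 5.55 and 3.14 peaks per Mb in those lists, and the territory outside held 10.4, 16.9 and 15.3. The territory of all genes held 5.64, 9.82 and 8.65 at that threshold. At that threshold Liver and vWAT with estradiol came close inside the clusters, with 22 (33.3%) and 19 (28.8%) of the 66 genes, and Liver was lower outside them, with 12 of the 26 genes (46.2%), against 17 (65.4%) in vWAT with estradiol and 16 (61.5%) in scWAT. The scWAT list had a peak for 9 of the 66 clustered genes (13.6%) at that threshold. Over all genes the shares were 50.6% in Liver, 59.2% in vWAT with estradiol and 57.9% in scWAT. All 3 lists were thus below all genes inside the clusters. For the stricter peaks Liver thus stayed above both white fat lists inside the clusters. Outside them it was below both, whereas at full length it was level with scWAT by share of genes. Inside the clusters the gap between Liver and vWAT with estradiol was small. Held to 5193 peaks a list, the clusters held 10 Liver peaks, 7 vWAT estradiol peaks, 4 scWAT peaks, 7 BAT peaks and 5 vehicle peaks. At that length 18.2%, 12.1% and 7.58% of clustered genes had a Liver, vWAT estradiol and scWAT peak. Outside the clusters those shares were 26.9%, 23.1% and 26.9%, so Liver was not below white fat there. Over all genes they were 35.8%, 28.9% and 27.8%. How reads that fit several near-identical copies were treated is not given in the sources used here, so peaks within the clusters are uncertain as to which copy they belong to, and the part of this in the counts was not tested.

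**Figure D3:**
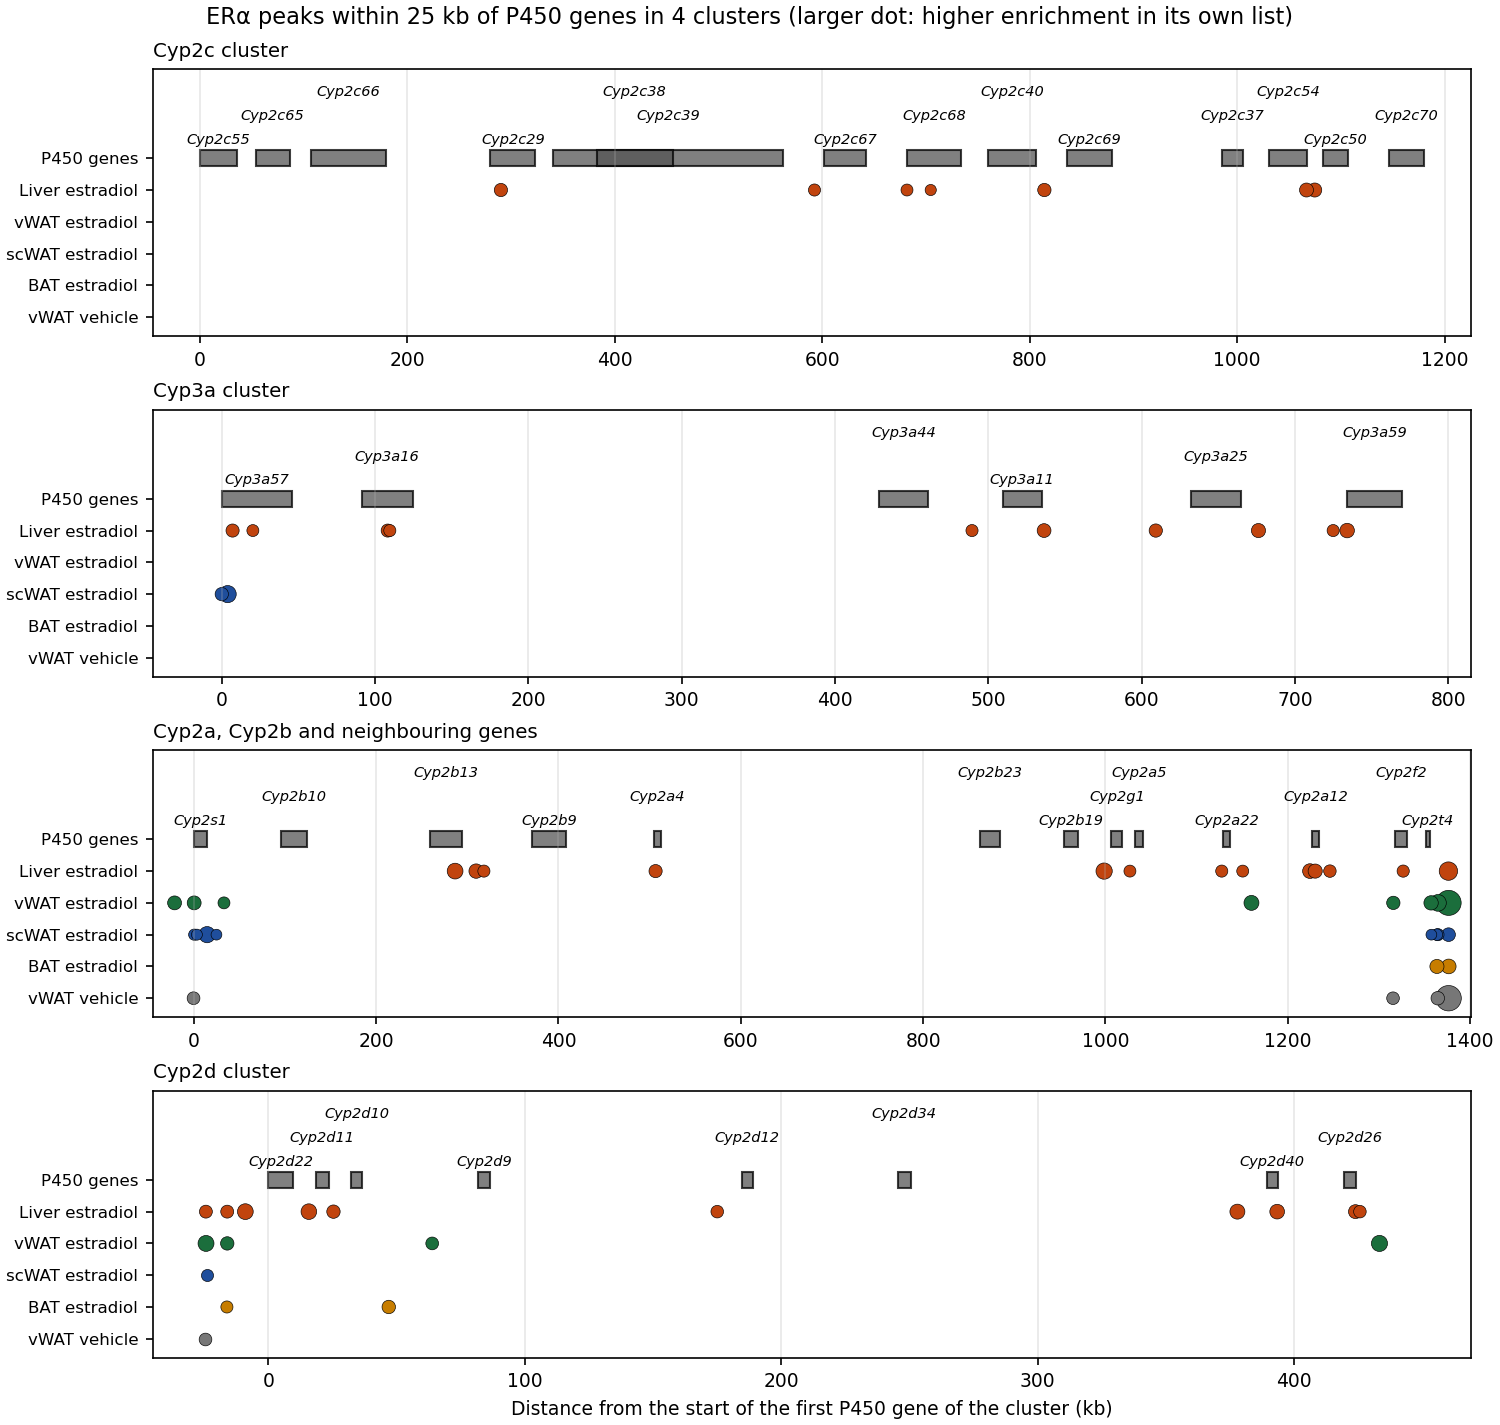
ERα peaks (dots, larger for a higher enrichment within the list) along 4 P450 clusters, by list, with the genes as boxes on the top row and distance in kb from the start of the first gene. The Cyp2c cluster has 7 dots, all in the Liver row, in reach of 50% of its genes, beside 67.5% of all genes in that list. The Cyp3a cluster has 10 dots in the Liver row and 2, both at Cyp3a57, in the scWAT row.

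The Cyp2c cluster, 14 genes at chr19:39006940-40187286, had 7 Liver peaks in reach of 7 genes and no peak in any other list. Those genes are 50% of the 14, beside 67.5% of all genes in Liver. Its territory held 6.23 Liver peaks per Mb, beside 11.1 over all genes, so the cluster was below all genes in Liver too. Its Liver peaks were weak for their list, with −log10 p-values of 5.89 at most, and 2 of the 7 reached a −log10 q-value of 2. The strongest pair lay 7.84 kb from Cyp2c54 and inside it 83 bp from its end, with enrichments of 4.52 and 4.47. The 6 genes of the Cyp3a cluster, at chr5:145345149-146114978, had 10 Liver peaks in reach of 5 genes (83.3%, against 67.5% of all genes). The only peaks there in another list were 2 of scWAT, at Cyp3a57, of which the stronger lay inside the gene at chr5:145348736-145349194 (6.58). Cyp3a11, a main drug-oxidising enzyme of mouse liver, had a Liver peak 1.65 kb away (4.36) and none in any fat list.

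In the run of 13 Cyp2a, Cyp2b and neighbouring genes at chr7:25802469-27158564, 13 Liver peaks lay in reach of 8 genes, and 8 vWAT estradiol peaks, 8 scWAT peaks, 2 BAT peaks and 4 vehicle peaks in reach of 4, 2, 1 and 3 genes. Beside 67.5%, 61.5%, 61%, 29.7% and 44.8% of all genes, those are 61.5%, 30.8%, 15.4%, 7.69% and 23.1% of the 13 genes in the run. All but 1 of the fat peaks there lay at the outer genes Cyp2s1, Cyp2f2 and Cyp2t4, the exception being 1 vWAT estradiol peak 23.3 kb from Cyp2a22 (5.10), whereas the Liver peaks were spread over the inner genes as well. The 8 Cyp2d genes had 10 Liver peaks in reach of 6 genes (75%) and 4, 1, 2 and 1 peaks in the vWAT estradiol, scWAT, BAT and vehicle lists. The 8 clustered Cyp4f genes had 9 Liver peaks in reach of 7 genes (87.5%), and 5, 3, 0 and 4 in those lists. In those other lists 37.5%, 12.5%, 37.5% and 12.5% of the Cyp2d genes had a peak. For the clustered Cyp4f genes it was 62.5%, 37.5%, 0% and 50%. In the Cyp4a and Cyp4b run, by contrast, the vWAT estradiol list held 5 peaks and the Liver list 2. In that run 71.4% of the genes had a vWAT estradiol peak and 57.1% a Liver peak, beside 61.5% and 67.5% of all genes.

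Sharing between lists was judged by an overlap of at least 1 bp, with 95% Wilson intervals that cover counting error over peaks only. The intervals treat the peaks of 1 list as independent, neighbouring ones included, and hold no spread between animals. Whether an interval holds the share of the whole list is therefore a description and not a test. Of the 87 Liver peaks near P450 genes, 19 (21.8%, interval 14.5% to 31.6%) overlapped a peak of an estradiol-treated fat list, against 27.4% of all Liver peaks. Of the vWAT estradiol peaks near P450 genes 16 of 59 (27.1%, 17.4% to 39.6%) overlapped a Liver peak, against 22.8% of all peaks of the list. For scWAT it was 10 of 48 (20.8%, 11.7% to 34.3%), against 25.8%, and for BAT 6 of 12 (50%, 25.4% to 74.6%), against 36.2%. Each of these intervals held the share of the whole list. Under the other settings some intervals held it and some did not, and only a few of them are given here. With −log10 q-values of at least 2 the Liver share was 23.9% (13.9% to 37.9%), and the whole-list share, 43.7%, lay above that interval. With 5193 peaks a list the Liver share was 22.2%, and its interval, which reached 45.2%, held the whole-list share of 42.1%. With each peak given to its nearest gene only, the Liver share was 9.38% (4.37% to 18.98%), and the scWAT share in Liver was 3.85% (0.682% to 18.9%). That setting drops peaks that lie nearer to another gene, as shared peaks often did. The whole-list shares, 27.4% and 25.8%, were not limited likewise, so these gaps cannot be read as particular to P450 genes. Within 100 kb the vWAT estradiol share in Liver was 31.3% (24.1% to 39.6%), above the 22.8% of the whole list. By single lists, 10 of the 87 Liver peaks (11.5%, 6.36% to 19.9%) overlapped a scWAT peak, against 21.6% of all Liver peaks.

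Of the 19 Liver peaks near P450 genes that overlapped an estradiol-treated fat peak, 12 (63.2%) lay within 1 kb of an end of a protein-coding gene, 3 of them at a P450 gene and 9 at another gene only. Of the 68 found in Liver alone 12 (17.6%) did, 10 at a P450 gene and 2 at another gene only. Over all 87 the share at any gene end was 27.6%, against 32.8% of all Liver peaks near genes. The split into shared and Liver-alone peaks was not made over all Liver peaks, so the contrast is not shown to be particular to P450 genes. The 3 peaks held by all 5 lists were those at Borcs7, Slc25a27 and Rab4b.

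**Figure D4:**
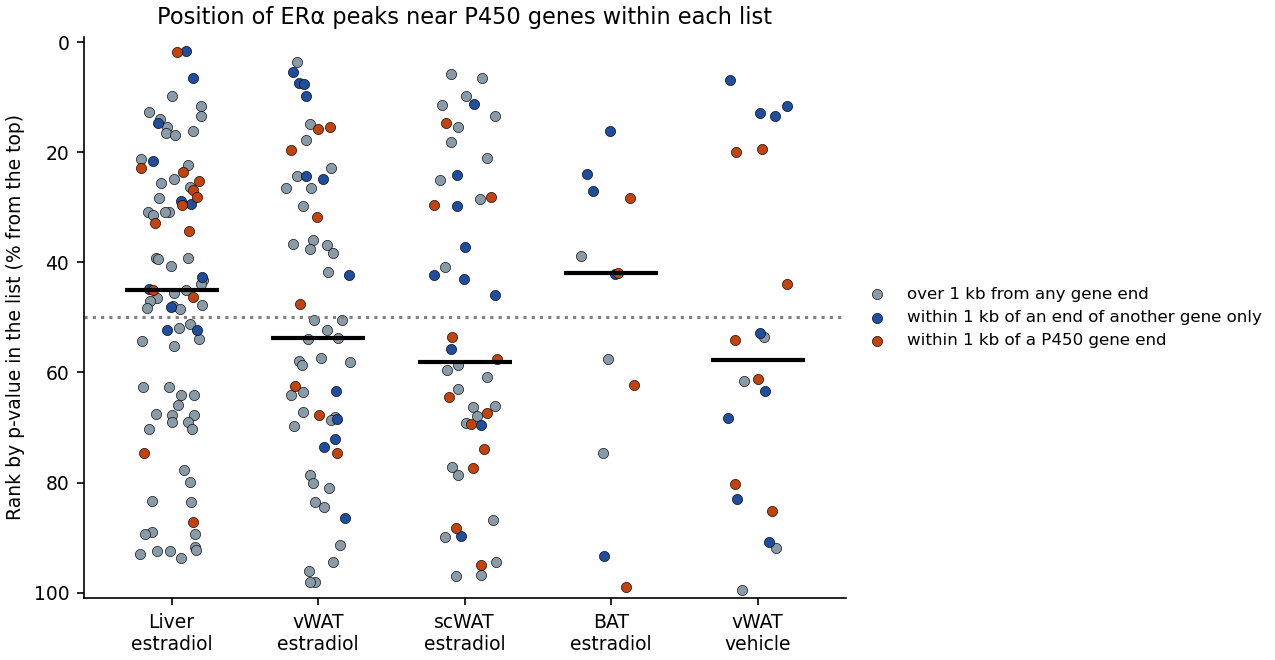
Rank of each ERα peak near a P450 gene within its own list by p-value (0 is the strongest; bars are medians), with colour showing whether it lies within 1 kb of a P450 gene end, of an end of another gene only, or of neither. Medians lie at 45.1% in Liver, 53.7% in vWAT with estradiol, 58.1% in scWAT, 42.0% in BAT and 57.7% in vWAT with vehicle.

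Peaks near P450 genes were of middling strength in every list. Their median enrichment was 4.06 in Liver, against 3.91 for the whole list, 4.72 in vWAT with estradiol against 4.84, 3.29 in scWAT against 3.43, 4.53 in BAT against 4.32, and 4.48 in vWAT with vehicle against 4.77. Among the strongest 10% of each list were 4 of the 87 Liver peaks, 5 of the 59 vWAT estradiol peaks, 3 of the 48 scWAT peaks, 0 of the 12 BAT peaks and 1 of the 20 vehicle peaks. Of the 87 Liver peaks, 46 (52.9%) reached a −log10 q-value of 2.

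Within vWAT, the estradiol list held peaks near 22 P450 genes (23.9%) that the vehicle list did not. The vehicle list held one near 1 gene, Cyp2j6 (3.16, inside the gene), that the estradiol list did not. Over all genes 61.5% had a vWAT estradiol peak and 44.8% a vehicle peak. The split was not counted over all genes, so it is not shown to be particular to P450 genes. Of the 59 vWAT estradiol peaks near P450 genes, 14 (23.7%, 14.7% to 36.0%) overlapped a vehicle peak, against 22.7% of the whole list. Of the 20 vehicle peaks 14 (70%, 48.1% to 85.5%) overlapped an estradiol peak, against 63.8% of the whole list. The 14 vWAT estradiol peaks that the vehicle list also held had a median enrichment of 6.60 and 12 of them (85.7%) lay at a gene end, whereas the 45 others had a median of 4.59 and 8 (17.8%) at a gene end. Over all peaks near genes, 59.3% of vehicle peaks and 30.7% of vWAT estradiol peaks lay at a gene end. Whether shared and unshared peaks differ likewise over the whole list was not examined. Among the 45 were the peaks inside Cyp1a1, beside Cyp27a1 and beside Cyp4a14. The other P450 genes with a vehicle peak included Cyp2f2, with enrichments of 4.07 in the vWAT estradiol list and 3.63 in the vehicle list at the same place, and Cyp4f16, whose only vehicle peak in reach was the one inside its neighbour Cyp4f17. The estradiol list comes from 4 libraries and the vehicle list from 2, so treatment and list size cannot be told apart.

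Close to the limit of 25 kb, the outermost Liver peak counted, by its closest P450 gene, was 24.5 kb from Cyp2b13 (enrichment 3.33), and the closest one not counted was 25.9 kb from Cyp2d40 (3.31). In vWAT with estradiol those distances were 24.3 kb (Cyp2d22, 5.75) and 30.8 kb (Cyp2w1, 4.39), and in scWAT 24.7 kb (Cyp21a1, 6.03) and 29.8 kb (Cyp4v3, 3.43).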

How the data were processed

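Of the 21 samples, the 12 ERα ChIP-seq libraries were used; RNA-seq and H3K27ac ChIP-seq, done on vWAT, were not used here. The sample labels gave the groups. Per the labels' protocols, nuclei from frozen tissue were sonicated and ERα was precipitated with sc543. What the sources used here do not state are the dose, route and time of treatment, the sex of the mice, whether each library is another animal, the peak caller with its cut-off and control, and how libraries were combined. Per the submitters' processing notes, reads or peaks involved BWA 0.7.12 and HOMER on mm10; which tool did what is not stated.

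The deposited columns, per peak, are a fold enrichment (a ratio), a −log10 p-value, a −log10 q-value, a summit, and a score that is 10 times the −log10 p-value without its decimals. Enrichment is the authors' own value and serves only to describe and rank peaks within a list. Peaks with tied p-values kept their order in the list. Depth is unknown, since the lists give no counts.

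Gene spans and symbols came from RefSeq on GRCm38.p6, the assembly of mm10, and coordinates count from 1. Roles, gene lists and the rule for named genes were set out with earlier results of these data known, as were the P450 genes themselves. Named were up to 5 genes of each role by strongest Liver peak, up to 3 by strongest peak in estradiol-treated fat, all with a peak in all 5 lists or in the vehicle list, and the strongest peaks of each list. Cyp1a1, Cyp2e1, Cyp3a11, Cyp3a59 and the clusters were chosen after their values were seen, and so was the promoter motif. Promoters were aligned with Biopython 1.88 (global alignment, gaps left out of the identity). Alternatives were a reach of 5 or 100 kb, peaks whose −log10 q-value was 2 or more, lists held to 5193 peaks, assignment to the nearest gene, and summits within 100 bp as shared. Computation used Python 3.11.15 and its libraries pandas 2.3.3, numpy 2.4.6, matplotlib 3.10.9 and scipy 1.17.1, and the overlap and distance functions were tested on simulated data.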

Additional observations from a re-analysis of the deposited data

How the results depend on the processing

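No paired analysis was possible because each group has 1 peak list and no values per library, and for the same reason no library could be left out. Of 110 values under the alternatives, 51 stayed near the main value and 59 moved, as the sets of peaks changed by construction. In each run of counts the lists stand as Liver, vWAT with estradiol, scWAT, BAT and vWAT with vehicle. Within 5 kb, P450 genes with a peak numbered 32, 24, 16, 4 and 11 and distinct peaks 41, 27, 22, 4 and 11, genes with fat and no Liver peaks 19, BAT density 1.21 peaks per Mb, and the scWAT share in Liver 9.09%. Within 100 kb, genes with a peak numbered 48 in scWAT, 40 in BAT and 39 in vWAT with vehicle, distinct peaks 180, 134, 124, 35 and 47, and genes with fat and no Liver peaks 5. With −log10 q-values of at least 2, Liver had 34 genes, 46 peaks and 7.70 peaks per Mb, BAT 4 genes, 4 peaks and 0.669 per Mb, Liver-only genes numbered 15 and fat-only genes 20, and 100% of the BAT peaks were in Liver. At 5193 peaks a list, genes numbered 19 in Liver, 14 in vWAT with estradiol and 12 in scWAT, peaks 18, 14 and 14, densities 3.01, 2.34 and 2.34 per Mb, and Liver-only genes 7, while 25% of BAT peaks were in Liver and 57.1% of vWAT estradiol peaks in the vehicle list. With the nearest gene only, genes numbered 18 in scWAT, 6 in BAT and 10 in vWAT with vehicle, peaks 32 in vWAT with estradiol, 26 in scWAT, 6 in BAT and 10 in vWAT with vehicle, and the shares were 9.38% for Liver in fat, and 15.6%, 3.85% and 16.7% for vWAT with estradiol, scWAT and BAT in Liver. With summits within 100 bp those 4 shares were 10.3%, 15.3%, 8.33% and 8.33%, and that of vWAT estradiol peaks in the vehicle list 13.6%.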

Other observations

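Among genes that work with the P450 enzymes, all 6 electron donors (Por, Cyb5a, Cyb5b, Cyb5r3, Fdx1 and Fdxr) had a peak in Liver, vWAT with estradiol and scWAT, 4 had one in BAT and 5 in vWAT with vehicle. Over all protein-coding genes the shares were 67.5%, 61.5%, 61%, 29.7% and 44.8% in those lists, so most genes of any kind had a peak in the first 3. Cyb5b, a cytochrome b5 of the outer mitochondrial membrane, had an enrichment of 4.75 in Liver, 12.3 in vWAT with estradiol, 7.66 in scWAT, 4.14 in BAT and 6.41 in vWAT with vehicle. Por, the reductase that passes electrons to microsomal P450 enzymes, had 4 peaks in Liver, 5 in vWAT with estradiol, 6 in scWAT, 0 in BAT and 1 in vWAT with vehicle. Of 15 transcription factors known to act on P450 genes, 15 had a peak in Liver, 14 in vWAT with estradiol, 13 in scWAT, 5 in BAT and 10 in vWAT with vehicle, beside the same shares of all genes. Stat5b, which carries the growth hormone signal behind sex differences of mouse liver, had enrichments of 11.4 in Liver, 16.3 in vWAT with estradiol, 15.3 in scWAT, 10.9 in BAT and 11.8 in vWAT with vehicle. Cux2, a repressor that is higher in female mouse liver, had 6 peaks in Liver (10.0 at most), 3 in vWAT with estradiol, 2 in scWAT, 0 in BAT and 1 in vWAT with vehicle.

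Of 7 P450 genes known to be higher in female mouse liver, 5 had a Liver peak (Cyp2a4, Cyp2b13, Cyp2c40, Cyp2c69 and Cyp3a16) and none had a peak in the other 4 lists. Of 3 known to be higher in male liver, 2 had a Liver peak, 3 a vWAT estradiol peak, 2 a scWAT peak, 0 a BAT peak and 1 a vehicle peak. Both lists are short and most of the first lies in clusters, so nothing particular to sex can be read from the counts. Among 8 P450 genes whose symbols fall outside the naming pattern, Cyp51, the sterol 14α-demethylase of cholesterol synthesis, had a peak in all 5 lists, with enrichments of 8.60 in Liver, 10.3 in vWAT with estradiol, 8.06 in scWAT, 6.38 in BAT and 8.89 in vWAT with vehicle. Cyp3a41a and Cyp3a41b, copies in the Cyp3a cluster, had 3 and 1 Liver peaks and none in any other list.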
